A study of Mus musculus with 9 samples.

Results

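The 35 genes described here form a module of p53 target genes and DNA damage checkpoint genes, taken from a list of symbols and measured in MIN6, an insulin-producing cell line from a mouse insulinoma that stands in for pancreatic beta cells. All 35 were found among the 52408 genes of the table, and 31 of them were expressed highly enough to be tested, out of 11950 tested genes in all. Total RNA was sequenced in 9 libraries, 3 in each of 3 groups. The first group was labelled EGCG treated and, per the series' design, received epigallocatechin gallate, a green tea catechin, upon overexpression of Nr4a1, an orphan nuclear receptor. The second group overexpressed Nr4a1 without EGCG. The third group, the control, was untransfected MIN6 cells. The groups are called EGCG, overexpression and control libraries below. No vehicle or empty-vector group is among these samples, so transfection as such and Nr4a1 cannot be told apart in the comparison with control. The sources used here do not give the dose or duration of EGCG or the means of overexpression. All libraries carry the same batch label, and since no label calls the triplicates separate cultures, the p-values reflect only how far these libraries spread, which may be technical.

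The protein p53, the product of Trp53, is a transcription factor held at a low level by the ubiquitin ligase MDM2 and its partner MDM4. When DNA is damaged or replication stalls, the kinases ATM and ATR, acting in part through CHK1 and CHK2, phosphorylate p53 and its inhibitors, and p53 then accumulates and binds pairs of short sequence elements in its target genes. The targets include inhibitors of the cell cycle, pro-apoptotic proteins, repair factors, metabolic enzymes and Mdm2 itself, which closes a feedback loop. Much of this regulation acts on the p53 protein, which RNA does not report. MIN6 was derived from an insulinoma of a mouse carrying the SV40 large T antigen under the insulin promoter, and large T antigen binds p53.

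Because p53 acts through short DNA elements, the promoters of the members were searched for them. RefSeq promoter windows of GRCm38.p6, each 300 bases long from 250 bases before to 50 bases after an annotated start, were matched for 28 of the 35 genes and gave 33 windows. Trp53inp1, Zmat3, Tnfrsf10b, Perp, Rrm2b, Xpc and Ddb2 had no entry. The p53 half-site, a 10-base consensus searched by exact match on both strands, occurred in 12 of the 33 windows, or 36.4%, from 11 genes, against 8.36% of all 32851 windows. A pair of adjoining half-sites, with at most 3 letters off the consensus and both 4-base cores whole, occurred in 5 windows from 4 genes, or 15.2%, against 0.572% of all windows. The list was made of p53 targets and checkpoint genes in the first place, so the shares are a description and carry no test. The half-site matches and the pair matches overlap in Trp53, Aen and Gtse1. The 250 bases before the start are shown for Trp53, Mdm2 and Tigar, the regulator itself, its main inhibitor and a metabolic target, because the RNA of each is followed below; they run 5′ to 3′ on the strand of the gene, and capitals mark the matched half-site or pair. The Trp53 window is chr11:69580109-69580358 on the plus strand, the Mdm2 window is chr10:117710759-117711008 on the minus strand, and the Tigar window is chr6:127109553-127109802 on the minus strand.
Trp53: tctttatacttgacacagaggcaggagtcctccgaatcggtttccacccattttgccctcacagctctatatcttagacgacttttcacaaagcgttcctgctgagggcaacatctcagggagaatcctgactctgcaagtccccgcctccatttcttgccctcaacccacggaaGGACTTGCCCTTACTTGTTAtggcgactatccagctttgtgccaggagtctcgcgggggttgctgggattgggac
Mdm2: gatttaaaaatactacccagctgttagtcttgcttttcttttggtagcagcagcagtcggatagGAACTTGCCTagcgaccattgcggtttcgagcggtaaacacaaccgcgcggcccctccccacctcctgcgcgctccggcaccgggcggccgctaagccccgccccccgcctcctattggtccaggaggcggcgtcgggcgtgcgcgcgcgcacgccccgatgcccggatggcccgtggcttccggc
Tigar: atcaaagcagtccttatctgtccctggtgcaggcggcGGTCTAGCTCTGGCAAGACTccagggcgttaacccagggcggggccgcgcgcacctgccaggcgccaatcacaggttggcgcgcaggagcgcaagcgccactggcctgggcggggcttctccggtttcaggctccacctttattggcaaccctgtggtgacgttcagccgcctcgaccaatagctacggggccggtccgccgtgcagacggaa

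Matches were also found in 9 other members, and the matched bases alone are shown with the cores in capitals, with positions counted from the annotated start.
Aen, pair starting 121 bases before 1 of its annotated starts: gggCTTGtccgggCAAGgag
Gtse1, pair from the last base before 1 of its annotated starts to 18 bases past it: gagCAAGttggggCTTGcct
Ccng1, half-site starting 185 bases before the start: gggCAAGcct
Gadd45a, half-site starting 40 bases before the start: gggCTAGccc
Ei24, half-site ending just before the start: gggCATGccc
Polk, half-site starting 231 bases before 1 of its annotated starts: gaaCTAGcct
Ppm1d, half-site starting 132 bases before the start: gagCTTGctc
Sesn1, half-site starting 173 bases before 1 of its annotated starts: aagCTTGttt
Ddit4l, half-site starting 90 bases before the start: gggCTTGcct

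The NBRE, the element AAAGGTCA that NR4A receptors bind as monomers, was searched on both strands without mismatch and was in 0 of the 33 member windows, against 1.51% of all windows. The E2F element TTTGGCGC was in 0 member windows, against 0.514% of all, and TTTCCCGC was in 1, that of Chek2, against 1.07% of all. The CHR element TTTGAA, a site used by cell cycle genes, was in 3 member windows, or 9.09%, against 17.9% of all windows. A match is a run of letters and not a shown binding site, and a missing match says only that these letters are not in this window. The p53-responsive promoter of Mdm2 lies in its first intron, outside the window printed here.

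Levels are in TPM, a relative abundance corrected for transcript length, deposited per transcript and summed here per gene, so levels of different genes may be compared. TPM does not hold the sequencing depth, so the precision of low values is unknown, and the number of libraries limits the errors. Nr4a1 itself averaged 53.9 ± 7.35 TPM in EGCG libraries, 138.7 ± 23.1 TPM in overexpression libraries and 0.723 ± 0.0814 TPM in control libraries (SD, n = 3 each). The EGCG group thus held less Nr4a1 RNA than the overexpression group, by 1.34 ± 0.125 on the log2 scale (SE; adjusted p = 3.71e-05), and EGCG and the lower Nr4a1 level cannot be told apart in their comparison. Of 12 beta cell markers 11 passed the filter, with summed levels of 4052 to 4383 TPM in EGCG libraries, 5822 to 6108 TPM in overexpression libraries and 3777 to 3932 TPM in control libraries. Of the 11, 7 rose and 1 fell with overexpression, beside 38.2% and 21.3% of all tested genes. With EGCG against overexpression 2 rose and 7 fell, beside 18.8% and 34.1%. Against control 4 rose and 5 fell, beside 11.1% and 7.1%, so the sums do not stand for each marker. Markers of delta, acinar, duct, fibroblast, endothelial and immune cells were each under 1 TPM in every library, and 3 of 6 alpha cell markers were detected at 1 TPM or more, with sums of 305 to 340 TPM, 778 to 864 TPM and 328 to 345 TPM in EGCG, overexpression and control libraries. Of these 3 alpha cell markers 2 rose and 1 fell with overexpression, beside 38.2% and 21.3% of all tested genes. The 1478 olfactory, vomeronasal and trace amine-associated receptor genes were summed as a set chosen by symbol. Their sums were 7.85 to 11.8 TPM in EGCG, 4.22 to 4.71 TPM in overexpression and 49.99 to 107.7 TPM in control libraries. The mean per gene was at most 0.0728 TPM. In bulk RNA, fewer cells of a kind and less RNA per cell cannot be told apart.

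Nr4a1 overexpression was accompanied by changes of both signs in the module. Trp53 and Aen rose close to 2-fold, and Gtse1, Plk2, Plk3, Btg2, Tigar and Chek1 rose too. The translesion polymerase gene Polk, the checkpoint kinase gene Atr, the ribonucleotide reductase gene Rrm2b, Pltp and Tnfrsf10b fell. In all, 23 of the 31 tested members passed the test against control (an adjusted p under 0.05 by limma, with Benjamini-Hochberg adjustment), or 74.2%, where 59.5% of all tested genes did. Of these 12 rose, or 38.7% against a background of 38.2%, and 11 fell, or 35.5% against a background of 21.3%. Pltp and Tnfrsf10b, both among those that fell, passed the filter on low values only through the EGCG and control libraries, so the filter itself selects for a difference, and without them 9 of 29 fell, or 31%. These counts describe a list chosen with earlier results known. The median log2 fold change of the tested members was 0.07, beside 0.10 for all tested genes, and the median absolute change was 0.32, beside 0.29. The values of 22 members did not overlap between the groups, a property shared by 65% of tested genes. The split of calls over all genes, 4561 higher and 2545 lower, became 3559 and 3389 under quantile normalization, where 11 members rose and 12 fell.

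EGCG on top of overexpression was accompanied by the opposite sign for many of these genes when set against overexpression alone. Trp53, Aen, Gtse1, Plk3, Tigar and Chek1 fell, while Polk, Atr, Pltp, Tnfrsf10b, Rrm2b and Ddb2 rose. Of the 31 tested members 18, or 58.1%, passed the test, where 53% of tested genes did, with 8 higher (25.8%, background 18.8%) and 10 lower (32.3%, background 34.1%). Pltp and Tnfrsf10b are among those higher, and without them 6 of 29 rose, or 20.7%. The median log2 fold change was -0.05, beside -0.09 for all tested genes, and 20 members did not overlap, a property shared by 64.6% of tested genes. The comparison shares its overexpression libraries with the comparison above, so the opposite signs of a gene are not independent, and each gene's values in all 3 groups are therefore given side by side below. With scaling to nuclear protein-coding genes alone, which shifted the overall median log2 change by 0.118, 12 members rose and 10 fell, and the split over all genes became 3240 higher and 2551 lower in place of 2250 and 4080.

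Against untransfected control, the EGCG libraries differed less in this module. Trp53, Aen, Gtse1, Ccng1 and Ddb2 were higher, and Gadd45a and Ei24 were lower. These 7 of 31 members, or 22.6%, stand beside 18.2% of all tested genes, with 5 higher (16.1%, background 11.1%) and 2 lower (6.45%, background 7.1%). The other 24 members did not pass the test, which does not show that they were equal. Over all 31 tested members, called or not, 16 did not overlap between the groups, a property shared by 34.8% of tested genes. Over all genes the split was 1323 higher and 849 lower, and it became 2339 and 673 with nuclear protein-coding genes alone and 1212 and 1204 under quantile normalization, where 4 members rose and 2 fell. Trp53, Gadd45a and Ei24 kept their call in each alternative run, while Aen, Ccng1, Gtse1 and Ddb2 lost theirs in some, with adjusted p up to 0.0563, 0.134, 0.061 and 0.122. Without control replicate 2 just 3 members were called, or 9.68%, where 974 genes or 8.15% of all tested were. Without EGCG replicate 1 there were 4, or 12.9%, where 735 genes or 6.15% were. No member changed 2-fold or more on the log2(TPM + 1) scale in either comparison with EGCG, as 3.05% of tested genes did against overexpression and 0.628% against control. That scale understates the change of low genes. In TPM, the EGCG means of Pltp, Tnfrsf10b and Polk were 4.33-fold, 2.25-fold and 2.21-fold those of overexpression.

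**Figure D1:**
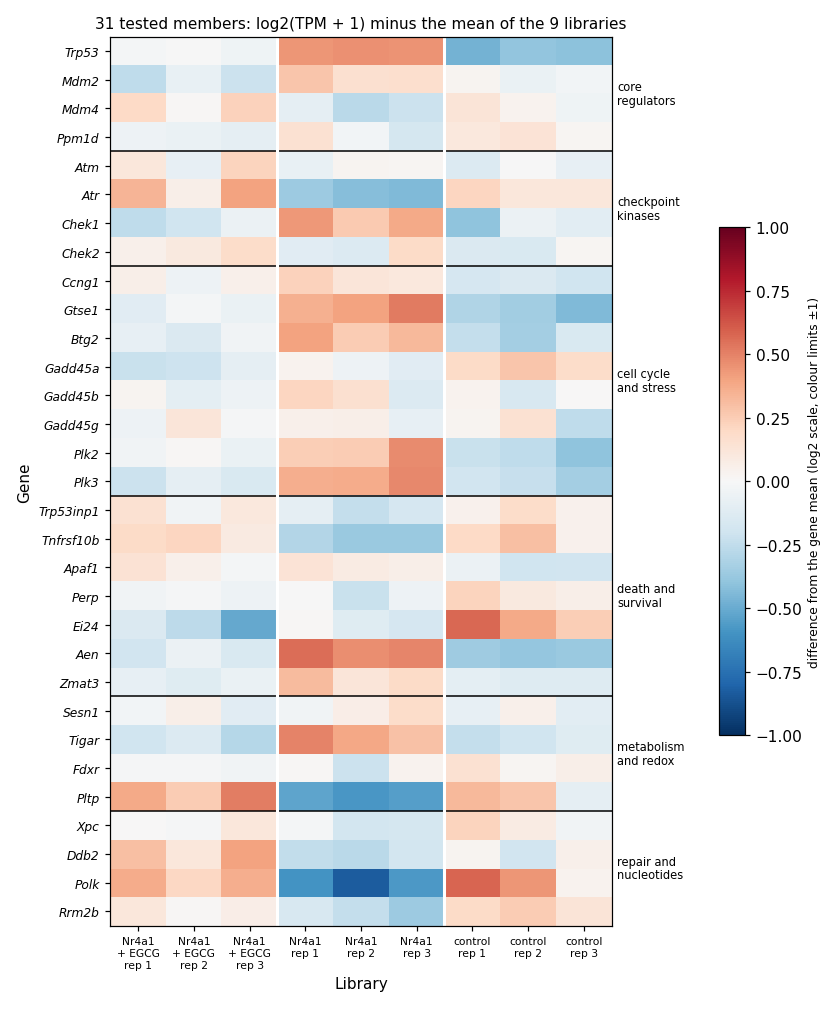
Level of each of the 31 tested members (rows, grouped by role) in each of the 9 libraries (columns), as log2(TPM + 1) minus the gene's mean over the 9 libraries, with red above and blue below the mean. The overexpression libraries stand apart in most rows, in red for Trp53, Aen and Gtse1 and in blue for Atr, Polk and Pltp.

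The core of the pathway is Trp53 with its regulators. Trp53 measured 11.9, 12 and 11.7 TPM in EGCG libraries, 16.7, 16.9 and 16.8 TPM in overexpression libraries and 8.39, 8.95 and 8.82 TPM in control libraries. The 3 groups did not overlap, and the EGCG libraries lay between the other two. In the overexpression libraries the mean TPM was 1.93-fold that of control. The difference on the log2(TPM + 1) scale was 0.87 ± 0.0447 (SE, adjusted p = 1.28e-06). With EGCG it fell by 0.47 ± 0.0447 relative to overexpression (adjusted p = 4.23e-05) and remained 0.41 above control (adjusted p = 0.00217). Its main coding transcript, Trp53-203, averaged 8.92 ± 0.611 TPM in EGCG, 13.2 ± 0.0929 TPM in overexpression and 6.96 ± 0.260 TPM in control libraries. Trp53-202 averaged 2.25 ± 0.526 TPM, 2.49 ± 0.0115 TPM and 1.19 ± 0.425 TPM in the same order of groups and also rose over control with overexpression (0.69, adjusted p = 0.00821), with no called difference between EGCG and overexpression (-0.12, adjusted p = 0.618).

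Mdm2, the ubiquitin ligase that marks p53 for degradation, gave 11.8, 13.4 and 12.1 TPM in EGCG libraries, 17.4, 15.9 and 16.1 TPM in overexpression libraries and 14.5, 13.5 and 13.9 TPM in control libraries. All overexpression values lay above all others, and Mdm2 rose by 0.22 ± 0.0619 on the log2 scale over control (adjusted p = 0.0122) and fell by 0.38 ± 0.0619 with EGCG relative to overexpression (adjusted p = 0.000857). The rise over control was lost under quantile normalization, where it was 0.08 (adjusted p = 0.28), over coding transcripts only, where it was 0.07 (adjusted p = 0.351), and with scaling to nuclear protein-coding genes alone, where it was 0.14 (adjusted p = 0.0571). Over coding transcripts only, Mdm2 was below control in EGCG libraries (-0.36, adjusted p = 0.0058), a difference of -0.16 that was not called over all transcripts (adjusted p = 0.104).

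Mdm4, which binds p53 and blocks its transactivation, gave 12.3, 10.7 and 12.6 TPM in EGCG libraries, 9.91, 8.63 and 9.01 TPM in overexpression libraries and 11.7, 10.9 and 10.3 TPM in control libraries. The overexpression values lay below both other groups, and EGCG and control values overlapped. Mdm4 fell by 0.23 ± 0.0777 with overexpression (adjusted p = 0.0287), a call lost when control replicate 1 (adjusted p = 0.0948), control replicate 2 (0.0606), overexpression replicate 2 (0.0992) or overexpression replicate 3 (0.0789) was left out. Against overexpression it rose by 0.34 with EGCG (adjusted p = 0.00551). Ppm1d, the phosphatase WIP1 that removes the activating phosphates from p53 and ATM, ranged from 4.47 to 5.84 TPM over the 9 libraries and passed no test in the main fit. Without overexpression replicate 1 it was called lower in overexpression than in control libraries (-0.19, adjusted p = 0.0495). All its EGCG values lay below all control values, a lack of overlap shared by 34.8% of tested genes (-0.16, adjusted p = 0.187).

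Of the 4 kinases at the head of the checkpoint, Atr and Chek1 changed in opposite directions. Atr, the kinase that senses single-stranded DNA at stalled forks, gave 18.3, 14.9 and 19.2 TPM in EGCG libraries, 10.9, 10.4 and 10.3 TPM in overexpression libraries and 16.7, 15.5 and 15.5 TPM in control libraries. It fell by 0.55 ± 0.0854 with overexpression (adjusted p = 0.000498) and rose by 0.67 ± 0.0854 with EGCG over overexpression (adjusted p = 0.000209). The difference of 0.12 between EGCG and control libraries did not pass (adjusted p = 0.344), but it was called as higher over coding transcripts only (0.22, adjusted p = 0.022) and without EGCG replicate 2 (adjusted p = 0.0496). Chek1, the effector kinase that ATR phosphorylates, gave 11.2, 11.7 and 13.0 TPM in EGCG libraries, 18.7, 16.4 and 17.9 TPM in overexpression libraries and 10.1, 12.9 and 12.6 TPM in control libraries. It rose by 0.55 ± 0.0966 with overexpression (adjusted p = 0.00109) and was lower with EGCG (-0.53, adjusted p = 0.00166). In both genes the overexpression libraries overlapped neither of the other groups, which overlapped each other.

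Atm, the kinase that answers double-strand breaks, was between 11.5 and 15.1 TPM and Chek2, its effector, between 2.93 and 3.99 TPM over the 9 libraries, and neither passed any of the 3 tests. For Atm, scaling to nuclear protein-coding genes alone gave a rise with EGCG over overexpression (0.24, adjusted p = 0.029), and for Chek2 likewise (0.25, adjusted p = 0.0463). The same rise was called for Atm under quantile normalization (0.23, adjusted p = 0.0435). For Chek2 it was called without overexpression replicate 3 (0.24, adjusted p = 0.0401). Chek1 and Gtse1 are genes that many cell types express most in dividing cells, so a list of 16 proliferation markers is set beside them. Of these 15 rose with overexpression and 15 fell with EGCG relative to it, beside 38.2% and 34.1% of all tested genes, their median log2 changes were 0.64 and -0.67, and their summed level was 586 to 593 TPM in EGCG, 881 to 923 TPM in overexpression and 556 to 614 TPM in control libraries. Their part in the values of Chek1 and Gtse1 was not tested.

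Among the 8 genes that act on the cell cycle or as stress kinases and inhibitors, 5 rose with overexpression, 1 fell and 2 did not pass, and 4 fell with EGCG relative to overexpression. Over all tested genes 38.2% rose and 21.3% fell with overexpression, and 34.1% fell with EGCG. Gtse1, a microtubule protein that binds p53 and moves it out of the nucleus, gave 2.85, 3.11 and 2.97 TPM in EGCG libraries, 4.34, 4.52 and 4.98 TPM in overexpression libraries and 2.39, 2.28 and 2.07 TPM in control libraries. The 3 groups did not overlap. Gtse1 was 2.05-fold higher with overexpression, or 0.79 ± 0.0667 on the log2(TPM + 1) scale, which understates the change of low genes (adjusted p = 1.51e-05), and fell by 0.50 with EGCG (adjusted p = 0.000297).

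Plk3, a stress-activated polo-like kinase, gave 5.90, 6.50 and 6.19 TPM in EGCG libraries, 9.29, 9.34 and 10.2 TPM in overexpression libraries and 5.98, 5.81 and 5.32 TPM in control libraries. It rose by 0.66 ± 0.0619 (adjusted p = 2.61e-05) and was lower with EGCG (-0.56, adjusted p = 9.58e-05), with the EGCG and control libraries overlapping. Plk2, its relative, averaged 1.76 ± 0.0709 TPM in EGCG, 2.54 ± 0.326 TPM in overexpression and 1.31 ± 0.149 TPM in control libraries, with a rise of 0.62 over control (adjusted p = 0.000225) and a fall with EGCG (-0.36, adjusted p = 0.00608).

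Btg2, an antiproliferative protein that recruits deadenylases, averaged 2.91 ± 0.145 TPM in EGCG, 4.21 ± 0.265 TPM in overexpression and 2.51 ± 0.230 TPM in control libraries. It rose by 0.57 over control (adjusted p = 0.000127) and was lower with EGCG (-0.41, adjusted p = 0.00106). Ccng1, the cyclin G1 that feeds back on MDM2, rose less: 11.8 ± 0.538 TPM in EGCG, 13.0 ± 0.656 TPM in overexpression and 10.2 ± 0.207 TPM in control libraries, a rise of 0.32 over control (adjusted p = 0.000822), with no called difference between EGCG and overexpression (-0.13, adjusted p = 0.0672).

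The 3 Gadd45 genes, stress sensors that bind PCNA and the MAP kinase pathway, did not move together. Gadd45a gave 47.6, 48.1 and 52.4 TPM in EGCG libraries, 57.3, 53.7 and 51.5 TPM in overexpression libraries and 63.7, 67.6 and 63.3 TPM in control libraries. It fell by 0.26 with overexpression (adjusted p = 0.00516) and by 0.39 with EGCG relative to control (adjusted p = 0.00572), while EGCG and overexpression libraries overlapped (-0.13, adjusted p = 0.0952). Gadd45b, between 1.37 and 2.07 TPM, and Gadd45g, between 4.16 and 5.84 TPM, passed no test. An antisense gene, E230016M11Rik, overlaps 19.104% of the exon bases of Gadd45a and averaged 1.65 TPM.

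**Figure D2:**
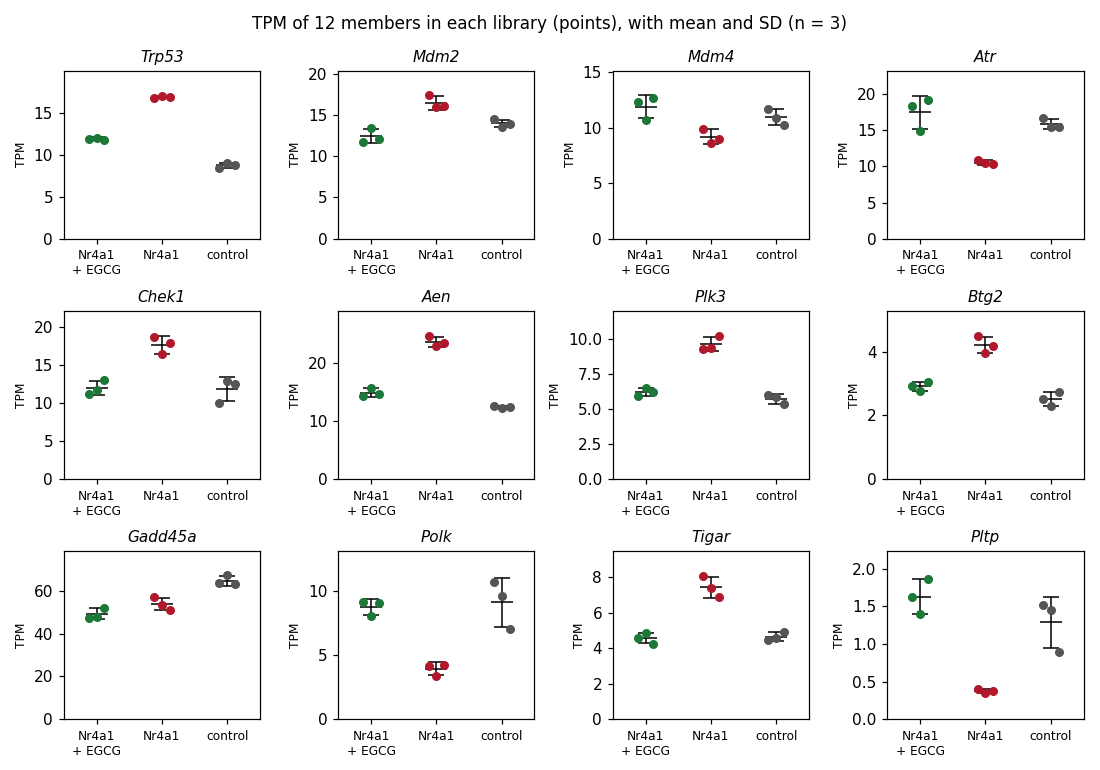
TPM of 12 members in each library (points), with the mean and SD of each group (n = 3), for the EGCG, overexpression and control libraries from left to right. The members were chosen after their values were seen, to span the roles; the overexpression libraries lie above both others for Trp53, Mdm2, Chek1, Aen, Plk3, Btg2 and Tigar and below both others for Mdm4, Atr, Polk and Pltp.

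Of 10 genes linked to cell death and survival, 7 were tested, and with overexpression 3 rose and 4 fell, beside 38.2% and 21.3% of all tested genes, with Tnfrsf10b among those that fell. Aen, a nuclease that p53 induces and that promotes apoptosis, gave 14.3, 15.7 and 14.7 TPM in EGCG libraries, 24.6, 23.1 and 23.4 TPM in overexpression libraries and 12.7, 12.3 and 12.5 TPM in control libraries. The groups did not overlap, and Aen rose by 0.87 ± 0.0514 over control (adjusted p = 2.43e-06), as much as Trp53, and fell by 0.64 ± 0.0514 with EGCG (adjusted p = 1.74e-05).

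Zmat3, an RNA-binding zinc finger protein and p53 target, averaged 3.34 ± 0.0764 TPM in EGCG, 4.35 ± 0.364 TPM in overexpression and 3.26 ± 0.0551 TPM in control libraries, a rise of 0.33 (adjusted p = 0.00149) and a difference of -0.30 with EGCG against overexpression (adjusted p = 0.00308). Apaf1, the scaffold of the apoptosome, averaged 2.15 ± 0.180 TPM in EGCG, 2.23 ± 0.0929 TPM in overexpression and 1.73 ± 0.150 TPM in control libraries. Its rise of 0.24 over control (adjusted p = 0.0143) was lost without overexpression replicate 1 (adjusted p = 0.0507).

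Ei24, an endoplasmic reticulum protein, gave 4.73, 4.28 and 3.45 TPM in EGCG libraries, 5.40, 4.81 and 4.64 TPM in overexpression libraries and 8.42, 7.22 and 6.51 TPM in control libraries. All control values lay above both other groups, which overlapped. It fell by 0.49 ± 0.111 with overexpression (adjusted p = 0.00438) and by 0.70 with EGCG relative to control (adjusted p = 0.00621). Between EGCG and overexpression libraries the difference of -0.21 did not pass (adjusted p = 0.135).

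Tnfrsf10b, a death receptor for TRAIL, gave 1.2, 1.24 and 1.05 TPM in EGCG libraries, 0.570, 0.490 and 0.490 TPM in overexpression libraries and 1.21, 1.37 and 0.980 TPM in control libraries. The overexpression libraries lay below both others, a fall of 0.52 relative to control (adjusted p = 0.00066) and a rise of 0.51 with EGCG (adjusted p = 0.000966). The gene passed the filter of 1 TPM only through the EGCG and control libraries. Perp, a desmosome protein induced by p53, averaged 6.43 ± 0.0902 TPM in EGCG, 6.14 ± 0.565 TPM in overexpression and 7.30 ± 0.50 TPM in control libraries. Its fall of 0.22 (adjusted p = 0.0239) was lost without control replicate 1 (adjusted p = 0.082) and without overexpression replicate 2 (adjusted p = 0.0862).

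Trp53inp1, a stress protein that links p53 to autophagy and cell death, averaged 6.03 ± 0.458 TPM in EGCG, 4.96 ± 0.300 TPM in overexpression and 6.11 ± 0.404 TPM in control libraries. Over all transcripts it fell by 0.25 with overexpression (adjusted p = 0.012) and rose by 0.24 with EGCG relative to it (adjusted p = 0.0187). The rise with EGCG was lost in 6 alternatives, with adjusted p between 0.0512 and 0.083, and the fall depended on which transcripts were summed, as described with the transcripts.

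The other 3 genes of this role were under 1 TPM in every library and were not tested. Fas, a death receptor, was at most 0.180 TPM. Eda2r, a receptor of the same family for ectodysplasin, was 0.380, 0.240 and 0.320 TPM in EGCG libraries, 0.660, 0.640 and 0.730 TPM in overexpression libraries and 0.320, 0.130 and 0.180 TPM in control libraries. Phlda3, which competes with AKT for membrane lipids, was at most 0.410 TPM.

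Of the 5 genes of metabolism and redox balance 4 were tested, and with overexpression Tigar rose and Pltp fell, beside 38.2% and 21.3% of all tested genes. Tigar, a phosphatase that lowers glycolytic flux in favour of the pentose phosphate pathway, gave 4.58, 4.83 and 4.25 TPM in EGCG libraries, 8.04, 7.4 and 6.85 TPM in overexpression libraries and 4.44, 4.59 and 4.91 TPM in control libraries. It rose by 0.58 ± 0.0697 (adjusted p = 0.000117) and was lower with EGCG (-0.60, adjusted p = 0.000123). The EGCG and control libraries overlapped. Over coding transcripts only the rise was 0.21 and was not called (adjusted p = 0.0873).

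Pltp, which transfers phospholipids between lipoproteins and is listed among p53 targets in human cells, gave 1.62, 1.40 and 1.87 TPM in EGCG libraries, 0.400, 0.350 and 0.380 TPM in overexpression libraries and 1.52, 1.45 and 0.900 TPM in control libraries. On the log2(TPM + 1) scale it fell by 0.72 ± 0.117 with overexpression (adjusted p = 0.00064) and rose by 0.93 with EGCG (adjusted p = 0.000193). In TPM its overexpression mean was 0.292 of the control mean, and its EGCG mean was 4.33-fold that of overexpression. It passed the filter only through EGCG and control libraries, and 19.321% of its exon bases are shared with Ctsa on the opposite strand, a gene averaging 24.2 TPM, so the division of reads between them is uncertain because the sources used here do not state the strand setting. Sesn1, a sestrin that senses amino acids and limits mTORC1, lay between 3.36 and 4.34 TPM, and Fdxr, a mitochondrial reductase, between 1.08 and 1.68 TPM; neither passed any test. Ddit4l, an mTOR inhibitor, was at most 0.160 TPM and was not tested.

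Of the 4 genes of DNA repair and nucleotide supply 3 fell with overexpression and 1, Ddb2, did not pass, beside 21.3% of all tested genes that fell. Polk, the translesion polymerase kappa that copies past bulky lesions, gave 9.09, 8.0 and 9.03 TPM in EGCG libraries, 4.17, 3.39 and 4.25 TPM in overexpression libraries and 10.7, 9.58 and 6.99 TPM in control libraries. The overexpression libraries lay below all others, and control replicate 3 was the lowest of its group. It fell by 1.02 ± 0.135 on the log2(TPM + 1) scale with overexpression (adjusted p = 0.000199), and its mean TPM was 0.433 of control. Polk was the only member called with at least a 2-fold change on that scale, as were 4.72% of tested genes. In mean TPM, Pltp (0.292 of control), Tnfrsf10b (0.435) and Gtse1 (2.05) also passed 2-fold. With EGCG Polk rose by 0.98 over overexpression (adjusted p = 0.000335) and overlapped control (-0.04, adjusted p = 0.86).

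Rrm2b, the p53-inducible ribonucleotide reductase subunit that supplies deoxynucleotides for repair, gave 7.02, 6.48 and 6.73 TPM in EGCG libraries, 5.61, 5.27 and 4.74 TPM in overexpression libraries and 7.43, 7.82 and 7.11 TPM in control libraries. It fell by 0.45 ± 0.0657 (adjusted p = 0.000374) and rose by 0.32 with EGCG (adjusted p = 0.00309). The overexpression libraries lay below both others.

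Ddb2, which recognises ultraviolet lesions, gave 6.51, 5.60 and 7.05 TPM in EGCG libraries, 4.13, 4.07 and 4.38 TPM in overexpression libraries and 5.20, 4.35 and 5.30 TPM in control libraries. The EGCG libraries were the highest, a rise of 0.50 over overexpression (adjusted p = 0.00134) and of 0.31 over control (adjusted p = 0.0417), while the difference between overexpression and control (-0.19, adjusted p = 0.0882) was called only over coding transcripts (-0.43, adjusted p = 0.000744) and in 4 other alternatives. Acp2 on the opposite strand overlaps 23.83% of its exon bases and averaged 3.75 TPM. Xpc, its partner in damage recognition, averaged 3.46 ± 0.209 TPM in EGCG, 2.99 ± 0.272 TPM in overexpression and 3.64 ± 0.411 TPM in control libraries. Its fall of 0.22 with overexpression (adjusted p = 0.0434) overlapped control and was lost in 10 of 22 alternatives, with adjusted p between 0.0548 and 0.144.

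**Figure D3:**
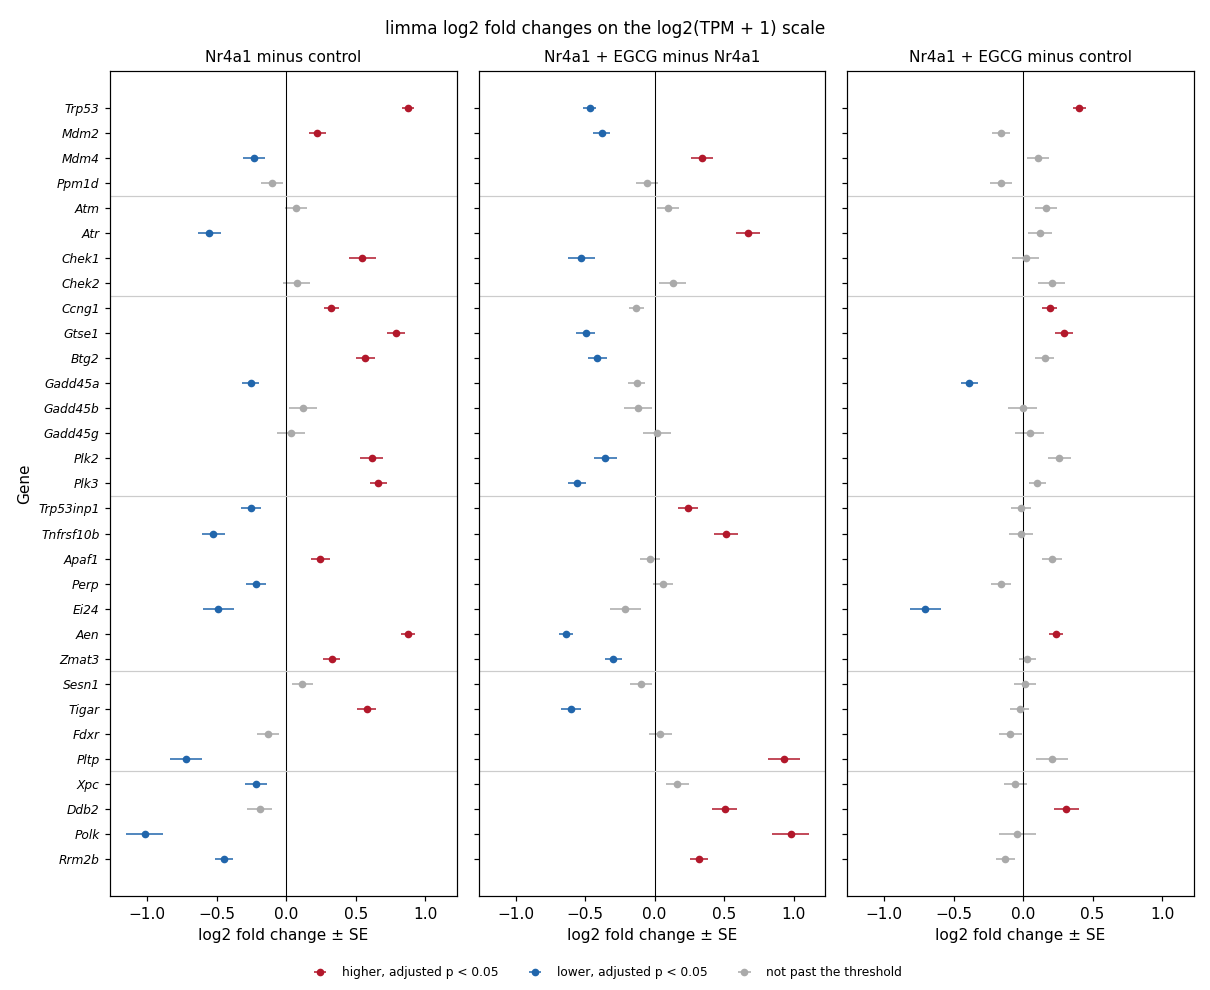
Log2 fold change with SE of each tested member in the 3 comparisons, on the log2(TPM + 1) scale, in red where higher and blue where lower at an adjusted p under 0.05, and in grey otherwise. Overexpression against control and EGCG against overexpression show many genes of opposite sign, such as Trp53 at 0.87 and -0.47 and Polk at -1.02 and 0.98, and they share the overexpression libraries.

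The deposited table also gives each transcript, and an alternative chosen after the data were seen examined 185 transcripts of the members, of which 57 from 31 genes were tested among 23437 transcripts. Over all tested transcripts 46.3%, 33.1% and 11% were called in the comparisons of overexpression with control, EGCG with overexpression and EGCG with control. Trp53inp1 was split. Its coding transcript Trp53inp1-201 averaged 3.80 ± 0.423 TPM in EGCG, 3.21 ± 0.225 TPM in overexpression and 2.51 ± 0.284 TPM in control libraries, a rise of 0.27 over control (adjusted p = 0.0452). Its noncoding transcript Trp53inp1-202 averaged 1.36 ± 0.648 TPM in EGCG, 1.2 ± 0.388 TPM in overexpression and 2.64 ± 0.525 TPM in control libraries and fell by 0.74 with overexpression (adjusted p = 0.0256). Summed over coding transcripts only, Trp53inp1 was 0.27 higher in overexpression than in control libraries (adjusted p = 0.018) and 0.45 higher in EGCG than in control libraries (adjusted p = 0.00602).

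Tigar-202, annotated as a target of nonsense-mediated decay, averaged 1.02 ± 0.670 TPM in EGCG, 2.41 ± 0.390 TPM in overexpression and 0.463 ± 0.584 TPM in control libraries, and rose by 1.29 over control (adjusted p = 0.0124). Tigar-201, the coding transcript, rose by 0.21 without a call (adjusted p = 0.149). Mdm2-203, a noncoding transcript, averaged 0.613 ± 0.140 TPM in EGCG, 1.96 ± 0.114 TPM in overexpression and 0.770 ± 0.276 TPM in control libraries and rose by 0.75 over control (adjusted p = 0.00251). Without the overexpression libraries Mdm2-203 would not have passed the filter of 1 TPM, so the filter itself selects for this rise. The main coding transcript Mdm2-201 did not pass in that comparison (0.05, adjusted p = 0.63) and fell with EGCG (-0.42, adjusted p = 0.0037). In Chek1, both coding Chek1-205 (1.03, adjusted p = 0.00137) and noncoding Chek1-207 (1.25, adjusted p = 0.00591) were higher with overexpression than in control. In Atr, coding Atr-201 fell by 0.32 (adjusted p = 0.00233) and the retained-intron transcripts Atr-211 and Atr-212 fell by 0.78 and 0.60. Both retained-intron transcripts were under 1 TPM in every overexpression library. They passed the filter only through EGCG and control libraries, so the filter itself selects for their fall. How the reads of a gene were divided among its transcripts is an estimate of the authors' software, with no error stated in the sources used here.

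**Figure D4:**
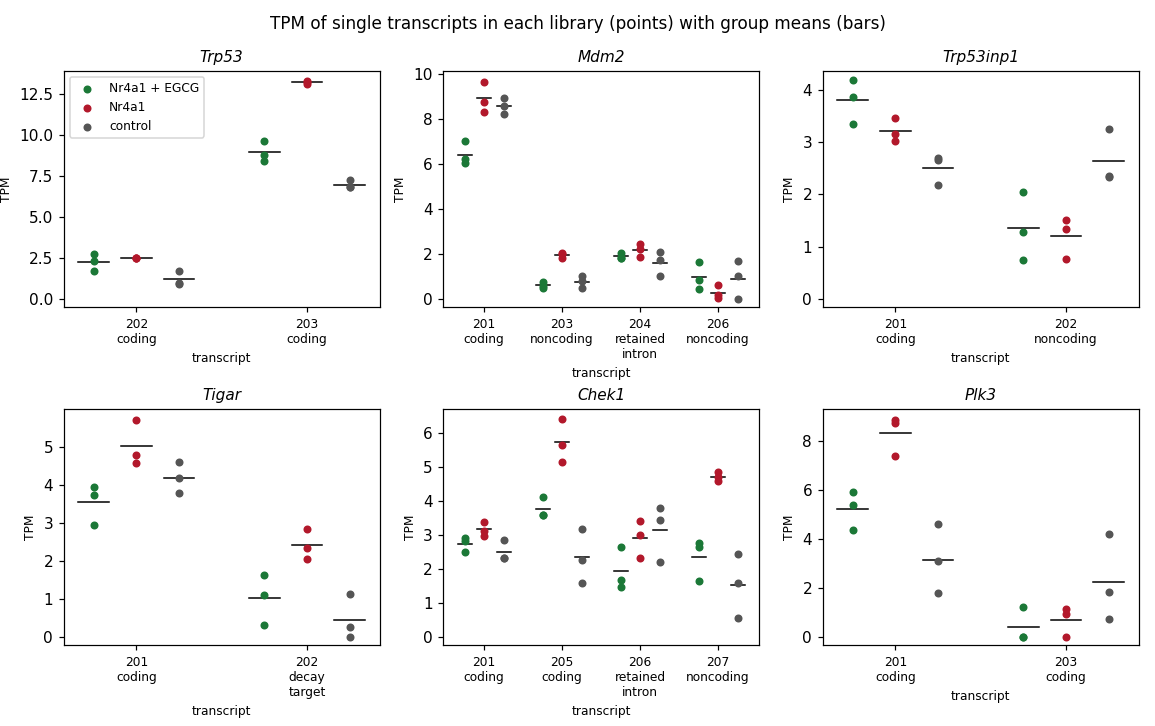
TPM of the tested transcripts of 6 members in each library (points), with group means (bars), for the EGCG, overexpression and control libraries from left to right. The coding transcript of Trp53inp1 averaged 3.80, 3.21 and 2.51 TPM in the EGCG, overexpression and control libraries, and its noncoding transcript 1.36, 1.2 and 2.64 TPM.

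Other genes of the pathway, from lists that hold no member, moved in both directions. Of 32 further p53 target genes 31 were found and 22 tested, and with overexpression 9 rose, 5 fell and 8 did not pass, with a median log2 change of 0.09. The called share was 63.6%, beside 59.5% of all tested genes, with 40.9% higher (background 38.2%) and 22.7% lower (background 21.3%). Pvt1, among those lower, averaged 0.707 ± 0.0702 TPM in overexpression and 1.39 ± 0.108 TPM in control libraries. It passed the filter of 1 TPM only outside the overexpression libraries, so the filter itself selects for a difference. Cdkn1a, the cyclin-dependent kinase inhibitor p21 that enforces the p53 arrest, averaged 23.0 ± 0.968 TPM in EGCG, 14.8 ± 2.04 TPM in overexpression and 21.8 ± 1.10 TPM in control libraries, a fall of 0.54 (adjusted p = 0.000625) and a rise of 0.61 with EGCG (adjusted p = 0.000413). Bbc3, which encodes the pro-apoptotic BH3 protein PUMA, averaged 4.02 ± 0.257 TPM in EGCG, 2.33 ± 0.0513 TPM in overexpression and 4.58 ± 0.215 TPM in control libraries and fell by 0.75 with overexpression (adjusted p = 1.13e-05). Trp53, Aen and Gtse1 were thus higher and Cdkn1a and Bbc3 lower in the same libraries.

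Abhd4 rose by 0.79 with overexpression (adjusted p = 0.0174) and fell by 0.80 with EGCG relative to overexpression (adjusted p = 0.0184), at 4.09 ± 1.82 TPM, 7.45 ± 0.517 TPM and 3.88 ± 0.238 TPM in EGCG, overexpression and control libraries. Sesn2, a sestrin, averaged 6.02 ± 0.857 TPM, 11.1 ± 0.742 TPM and 7.92 ± 0.220 TPM in the same order of groups, and with EGCG it fell below overexpression (-0.79, adjusted p = 8.69e-05) and below control (-0.35, adjusted p = 0.0255). Notch1 fell by 0.49 with overexpression (adjusted p = 0.00348) and rose by 0.68 with EGCG (adjusted p = 0.000699). With EGCG against overexpression 7 of the 22 rose and 7 fell, 31.8% each beside backgrounds of 18.8% and 34.1%. Against control 0 rose and 1, Sesn2, fell, beside 11.1% and 7.1% of all tested genes.

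Of 21 regulators and cofactors of p53, 18 were tested, and with overexpression 5 rose and 6 fell, with EGCG against overexpression 4 rose and 4 fell, and with EGCG against control 3 rose and 1 fell. The called shares of 61.1%, 44.4% and 22.2% stand beside 59.5%, 53% and 18.2% of all tested genes. Rchy1, a ubiquitin ligase for p53, averaged 9.50 ± 0.781 TPM in EGCG, 16.3 ± 0.663 TPM in overexpression and 7.88 ± 0.123 TPM in control libraries (0.96 over control, adjusted p = 3.49e-06). The ribosomal protein gene Rpl23, whose product can bind MDM2, averaged 184 ± 13.8 TPM in EGCG, 131 ± 4.80 TPM in overexpression and 220.4 ± 13.2 TPM in control libraries, a fall of 0.74 with overexpression (adjusted p = 2.89e-05). Ribosomal protein genes have many near-identical pseudogenes, so their levels are less certain. Sirt1, a deacetylase of p53, rose by 0.52 with overexpression (adjusted p = 0.000171), and Kat5, an acetyltransferase, fell by 0.56 with EGCG relative to overexpression (adjusted p = 0.000616). Kat5 shares 12.14% of its exon bases with Rnaseh2c on the opposite strand, which averaged 16.3 TPM, so its level is uncertain. Against control, Ttc5 rose by 0.37 with EGCG (adjusted p = 0.0103) and Ep300 by 0.28 (adjusted p = 0.0306).

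Of 43 other checkpoint and DNA damage response genes, 24 were higher with overexpression, 5 were lower and 14 missed the threshold, and 3 rose and 20 fell with EGCG relative to it. Those higher with overexpression were 55.8% of the list, beside 38.2% of all tested genes, and those lower 11.6%, beside 21.3%. With EGCG relative to overexpression 6.98% were higher, beside 18.8%, and 46.5% were lower, beside 34.1%. Rpa1, which coats single-stranded DNA, averaged 33.6 ± 3.09 TPM in EGCG, 57.1 ± 1.76 TPM in overexpression and 28.0 ± 0.577 TPM in control libraries, a rise of 1.00 (adjusted p = 4e-06). Cdc25c, the phosphatase that CHK1 restrains, rose by 0.92 (adjusted p = 1.92e-05), Rad9a of the checkpoint clamp by 0.82 (adjusted p = 9.4e-06) and Fancd2 of the crosslink repair pathway by 0.69 (adjusted p = 1.23e-05). H2afx, the histone variant phosphorylated at breaks, averaged 25.5 ± 8.4 TPM in EGCG, 67.7 ± 2.8 TPM in overexpression and 44.3 ± 4.04 TPM in control libraries, so it was lower with EGCG than in both others (-1.43 and -0.82, adjusted p = 0.000458 and 0.0276). With EGCG against control 9 rose and 2, H2afx and Tipin, fell, beside 11.1% and 7.1% of all tested genes. Rad9a shares 9.526% of its exon bases with the abundant Ppp1ca on the opposite strand, at 109.7 TPM, and Rchy1 shares 18.023% with Thap6, so their levels are uncertain. As with Chek1, the proliferation markers moved with these groups, and their part in the counts was not tested.

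Of 20 nucleotide excision repair and translesion genes, 6 rose and 8 fell with overexpression, 5 rose and 3 fell with EGCG against overexpression, and 3 rose and 2 fell with EGCG against control. The called shares of 70%, 40% and 25% stand beside 59.5%, 53% and 18.2% of all tested genes. Ercc1, of the nuclease that cuts beside a lesion, averaged 4.29 ± 0.434 TPM in EGCG, 8.66 ± 0.890 TPM in overexpression and 3.47 ± 1.03 TPM in control libraries and rose by 1.13 with overexpression (adjusted p = 0.000189). Poli, another translesion polymerase, averaged 3.40 ± 0.331 TPM in EGCG, 1.71 ± 0.160 TPM in overexpression and 3.88 ± 0.0917 TPM in control libraries, a fall of 0.85 (adjusted p = 1.62e-05), beside the fall of Polk. Ddb1, the partner of DDB2, averaged 55.0 ± 2.35 TPM in EGCG, 61.0 ± 2.57 TPM in overexpression and 42.1 ± 0.428 TPM in control libraries and was higher than control in both other groups (0.38 and 0.53, adjusted p = 0.00428 and 3.44e-05).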

How the data were processed

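MIN6 RNA was sequenced in 9 libraries of 3 groups, grouped and numbered by their titles. Per the labels' protocols, an RNeasy kit was used for extraction and a stranded kit for total RNA libraries. The authors deposited TPM per transcript for each library. Per the submitters' processing notes, the tools named are STAR 2.7.1a, RSEM 1.2.31, cutadapt 2.8, FastQC 0.11.9 and bcl2fastq 2.20, with the build GRCm39. The sources used here state neither the annotation release nor the strand setting. TPM is relative to the total of a library, so when abundant RNAs rise all others are lowered, and it holds no depth.

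Transcripts were joined to genes and summed per gene with GENCODE M21, an older build that also gave names, biotypes and exon overlaps. Of 142435 identifiers 138346 (97.13%) matched, and the 4089 unmatched held between 17.993% and 20.572% of a library's TPM. The unmatched identifiers entered no gene's sum, so any transcript of a member among them is missing from its level. Genes whose sum reached 1 TPM in 3 or more libraries (11950 genes, 10760 protein coding) were tested with limma 3.58.1 in R 4.3.3 on log2(TPM + 1), all 9 libraries in a single fit with a mean-variance trend, two-sided, with Benjamini-Hochberg adjustment over all tested genes of a comparison and a threshold of 0.05. Errors of log2 fold changes are SE, errors of TPM are SD (n = 3). The scripts were tested on simulated data. All members are named. From each other list, up to 4 called genes with the largest absolute change in each comparison are named, and Pvt1 because of the filter. The transcripts and the members plotted were chosen after values were seen. The members and lists were chosen with earlier results of these data known. Alternatives covered pseudocount, filter, scaling, samples in the fit, variance trend, library weights, a replicate block, coding transcripts, subtraction of the mean chemoreceptor TPM and leaving out each library. Python 3.11.15, pandas 2.3.3 and matplotlib 3.10.9 served for other steps.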

Additional observations from a re-analysis of the deposited data

How the results depend on the processing

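Of 23, 18 and 7 members called in overexpression against control, EGCG against overexpression and EGCG against control, 16, 17 and 3 kept their call in each of the 22 alternatives where they were tested. Summing coding transcripts only reversed Trp53inp1, to 0.27 in overexpression against control and to 0.45 in EGCG against control; its noncoding transcript is left out by construction. Leaving out a library gave 20 to 23, 17 to 18 and 3 to 6 called members in the 3 comparisons (higher: 11 to 12, 7 to 8 and 1 to 4; lower: 8 to 12, 10 to 11 and 2), and for EGCG against control 735 to 3239 called genes, 462 to 1727 higher and 273 to 1512 lower. Without control replicate 2, 3 members were called there, and without EGCG replicate 1, 4; the calls lost were among Aen, Ccng1, Gtse1 and Ddb2. Without control replicate 1, overexpression replicate 2 or 3 or EGCG replicate 3, 3 members were higher there in place of 5; without EGCG replicate 2 or control replicate 3 the gene counts moved too.

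With no filter, 12395 genes were called in overexpression against control, 7798 of them lower, and 4775 in EGCG against control, 3563 lower, since more genes were tested. With nuclear protein-coding genes alone, 2551 genes were lower in EGCG against overexpression and 2339 higher in EGCG against control. Library weights gave 1503 lower genes in EGCG against control. A fit of only the 6 libraries of that comparison, which has fewer samples, called 3 members, 1 of them higher, and 895 genes, 543 higher and 352 lower. Where not stated, the cause was not tested.

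Same-numbered libraries had correlations of deviations between -0.021 and 0.214, not all above 0.1, and differently numbered libraries between -0.238 and 0.121. These ranges overlap and the labels state no pairing, so the main fit used none. A pairing is not excluded by these values. With the replicate block, EGCG against control gave 4 called members, 2 higher, and 1221 genes, 735 higher and 486 lower, and the other comparisons gave 23 and 19 called members. TPM holds no depth, so the precision of genes near 1 TPM is unknown.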
